A study of Mus musculus with 10 samples.

Results

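The non-clustered protocadherins are cell adhesion proteins that are each encoded by a gene of its own. The 10 genes described here, of 55414 genes counted in every library, were taken from the family, with earlier results of these data known. They are the delta-type members *Pcdh1*, *Pcdh7*, *Pcdh9* and *Pcdh11x* (delta-1), *Pcdh8*, *Pcdh10*, *Pcdh17*, *Pcdh18* and *Pcdh19* (delta-2), together with *Pcdh20*, which belongs to neither class. *Pcdh7* and *Pcdh11x* were singled out by the study from the same contrast of genotypes, so their values are given as a description and nothing is read from a test of them. At E18.5, bulk RNA was sequenced from the DRG of 5 control and 5 *WD1* cKO embryos to ask what the early loss of the transcription factor Dach1 does to somatosensory ganglia. All embryos of both groups were homozygous for a *Dach1* allele with a floxed exon (*Dach1* flox/flox). The *WD1* cKO embryos also carried *Wnt1*Cre/+, while controls had no Cre, and the floxed line was of mixed C57Bl/6J and CD1 background. *Wnt1*Cre acts in the neural crest, which gives rise to both the neurons and the glia of the DRG, so the deletion is not restricted to a neuronal subtype. Endothelial, blood and immune cells of the ganglion do not come from the neural crest. The genotype entries of the labels are exchanged relative to the sample titles, and the titles were followed. Control libraries held 20465132 to 27528784 counts and *WD1* cKO libraries 19757596 to 34796562.

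Protocadherins of this family hold extracellular cadherin repeats, a single transmembrane segment and a cytoplasmic tail, and bind to the same protein on neighbouring cells. Delta-1 members have a longer series of repeats than delta-2 members and a conserved tail motif that delta-2 members lack. They are known for roles in axon outgrowth, in the sorting of neurons and in the formation of synapses, and several of them are expressed in developing sensory ganglia.

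Expression of *Dach1*, the deleted gene, was examined before that of the protocadherins. *Dach1* was at 35.1, 38.5, 41.6, 37.1 and 37.4 CPM (read counts relative to the library total, scaled by TMM) in control replicates 1 to 5 and at 19.1, 20.7, 19.5, 20.3 and 20.4 CPM in *WD1* cKO replicates 1 to 5. Every library titled *WD1* cKO was below every control library, in the direction of the titles. Reads of all exons enter this level, so transcripts without the floxed exon still count. Markers of sensory neurons were abundant in both groups, with a summed level of 5940 to 6420 CPM in control and 6020 to 6250 CPM in *WD1* cKO libraries, and *Prph* as the most abundant gene. In bulk RNA, fewer cells of a type and less RNA per cell cannot be told apart.

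Embryos of both sexes were present, in unequal numbers. *Xist*, the transcript of the inactive X chromosome, was at 4.44, 1169, 4.85, 3.39 and 958 CPM in control replicates 1 to 5 and at 1066, 3.91, 1068, 1063 and 974 CPM in *WD1* cKO replicates 1 to 5. High *Xist* was therefore found in 2 of 5 control and 4 of 5 *WD1* cKO libraries. The Y-linked gene *Ddx3y* ran opposite to it, from 90.1 to 99.5 CPM in the libraries with low *Xist* and at 0.295 CPM or less in those with high *Xist*, and *Eif2s3y*, *Kdm5d* and *Uty* divided the libraries in the same way. As *Pcdh11x* and *Pcdh19* lie on chromosome X, their levels are given by *Xist* as well. Libraries also differed by replicate number, with the first principal component (28.4% of the variance) from -26.6 to -0.612 in replicates 1 to 3 and from 20.3 to 23.6 in replicates 4 and 5 of both groups. No batch is named in the labels, and values within each set of numbers are given where they bear on a gene.

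All 10 genes passed the filter on low counts, which asked for at least 10 counts in at least 5 libraries. To compare the genes with each other, CPM was divided by the exon length of each gene in GENCODE M21, an annotation of GRCm38 that was used for lengths and gene order while the reads were counted on GRCm39. In control libraries *Pcdh1* had the highest level per kilobase of exon, 29.5 ± 4.14 CPM (SD, n = 5). It was followed by *Pcdh9* at 14.4 ± 0.815 and *Pcdh7* at 11.0 ± 0.423 CPM per kilobase (SD, n = 5). These are 3 of the 4 delta-1 genes, and their control libraries did not overlap with each other. *Pcdh10* at 6.96 ± 0.358 and *Pcdh17* at 6.49 ± 0.526 CPM per kilobase came next and overlapped. *Pcdh18* was at 3.83 ± 0.244, *Pcdh19* at 2.99 ± 0.43 and *Pcdh11x* at 1.20 ± 0.141 CPM per kilobase. The libraries of *Pcdh8*, from 0.73 to 1.44 CPM per kilobase in controls, overlapped with those of *Pcdh11x*, from 1.03 to 1.32. *Pcdh20* was lowest at 0.124 ± 0.0553 CPM per kilobase, on counts of 9 to 26 per control library. In *WD1* cKO libraries *Pcdh11x* no longer overlapped with *Pcdh8*, at 1.40 to 1.90 against 0.616 to 0.84 CPM per kilobase, while *Pcdh18* at 3.49 to 4.20 and *Pcdh19* at 3.27 to 3.64 did overlap. The order of the means was the same in both groups.

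**Figure D1:**
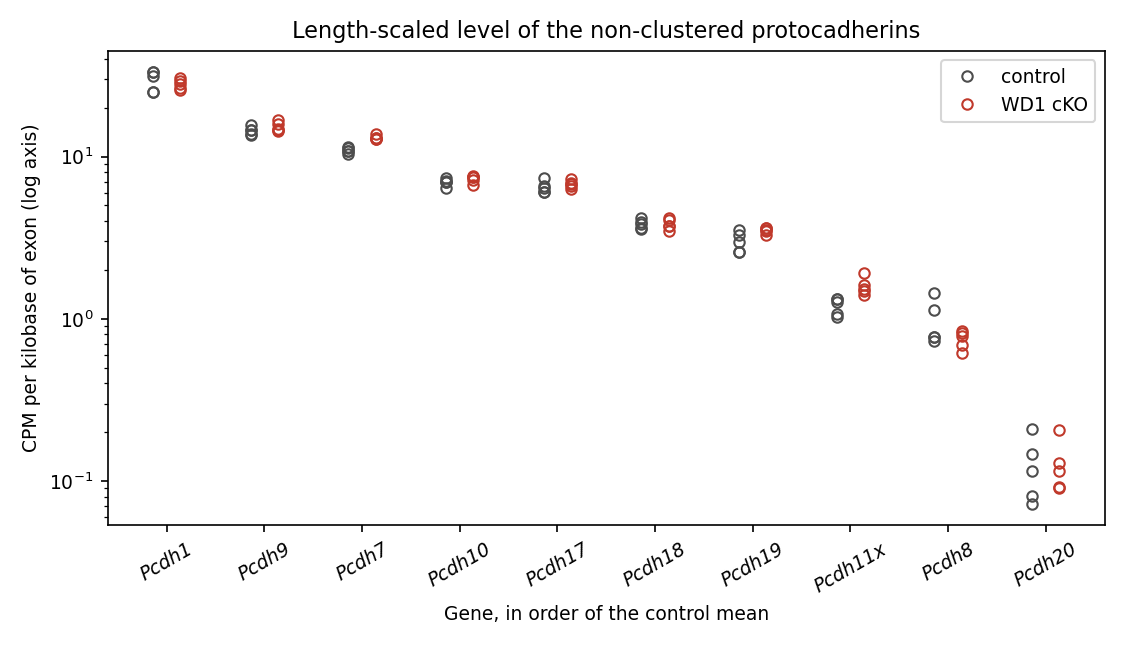
Level of the 10 genes per kilobase of exon on a log axis, in order of the control mean, with each circle as a library (grey, control; red, *WD1* cKO). Levels run from 29.5 CPM per kilobase for *Pcdh1* to 0.124 for *Pcdh20* in control means, and the order is shared by both groups.

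The spread among controls also differed between the genes. The coefficient of variation over the 5 control libraries was 3.86% for *Pcdh7*, 5.11% for *Pcdh10* and 5.65% for *Pcdh9*, below the median of 8.57% over all genes tested. It was 14.0% for *Pcdh1* and 14.4% for *Pcdh19*, although counting error alone would give 1.29% and 3.75%. For *Pcdh20* it was 44.4%, where counting error alone would give 25.5%, and for *Pcdh8* 31.9%, where it would give 10%. The last of these came from 2 libraries, as described with that gene.

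The groups were compared by the edgeR quasi-likelihood test, with p-values adjusted by Benjamini-Hochberg over 17490 genes. The adjusted p-value was under 0.05 for 1 of the 10 genes, *Pcdh7*, against 0.04% of all genes tested. This number was 0 with the level of *Xist* as a covariate, and remained 1 in 3 of the 10 fits that each left out 1 library. In the main fit *Pcdh7* had a log2 fold change of 0.26, which was 0.24 with *Xist* and 0.24 to 0.28 in those 10 fits. At the study's cut-off (unadjusted p under 0.005, log2 fold change beyond 0.15 in either direction) 2 of the 10 passed, against 0.383% of all genes. The libraries of the groups did not overlap for 2 of the 10, against 1.06% of all genes. All 3 counts consist of *Pcdh7*, or of *Pcdh7* and *Pcdh11x*, which the study had picked from this same contrast, so nothing is read from them. For the 8 genes that the study did not pick, no adjusted p-value was under 0.05 by edgeR or by DESeq2, while without adjustment that of *Pcdh19* was, 1 gene of 8 by either tool, against 4.5% of all genes tested by edgeR and 3.68% by DESeq2. The median log2 fold change of these 8 genes was 0.057, beside 0.00022 over all genes tested.

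**Figure D2:**
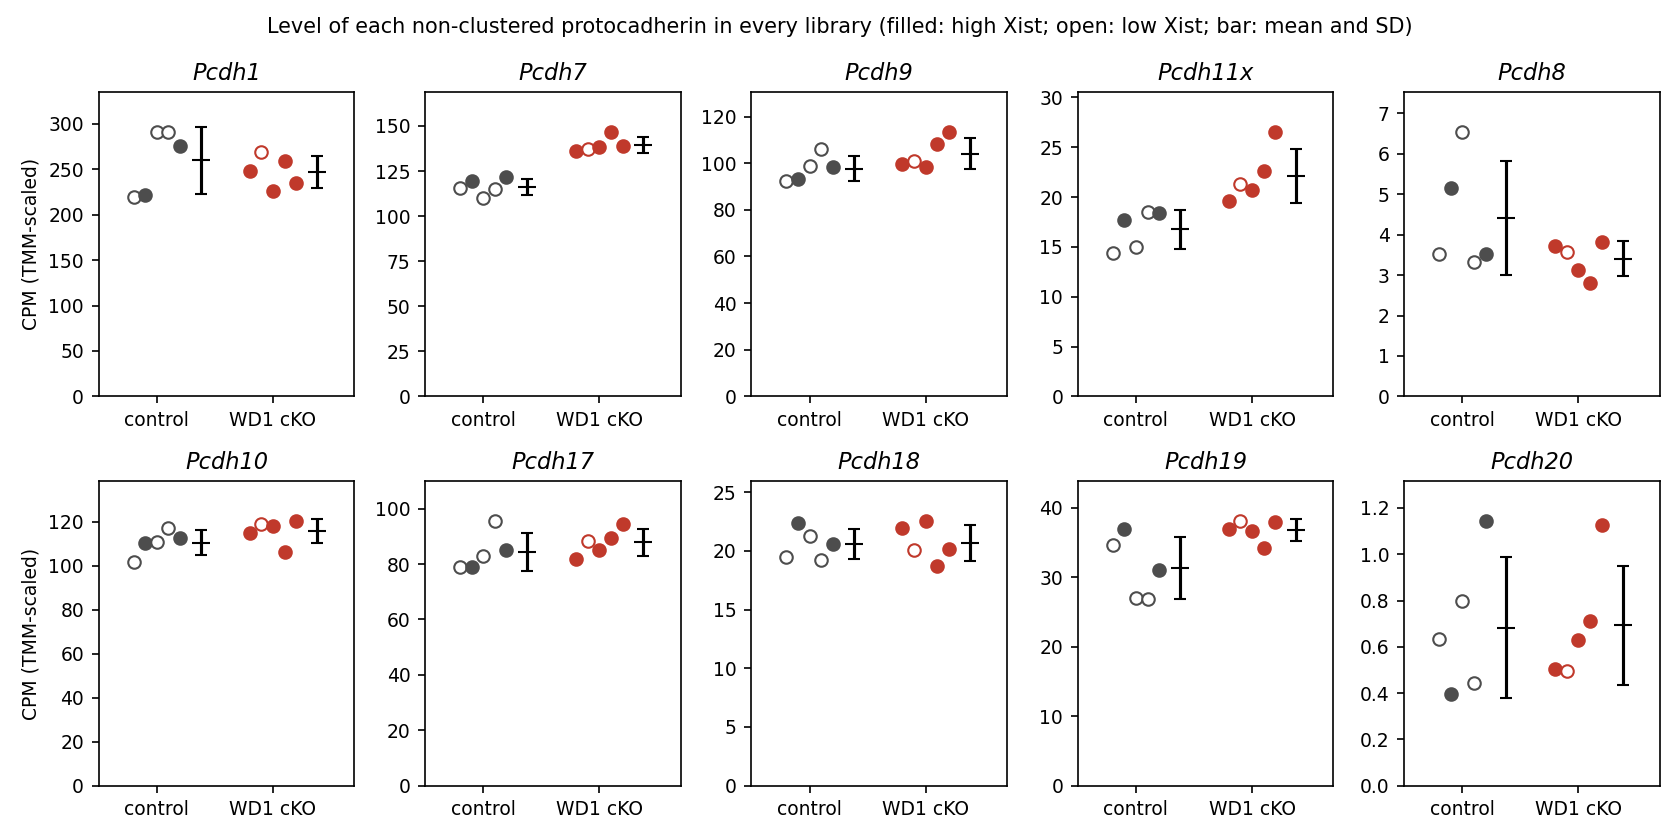
Level in CPM of each gene in every library, with filled circles for libraries with high *Xist*, open circles for those with low *Xist*, and the mean with SD at the side. For *Pcdh7* and *Pcdh11x* the 5 *WD1* cKO libraries sit above all 5 controls, while the groups overlap for the other 8 genes.

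Among the delta-1 genes, *Pcdh7* encodes a protocadherin whose tail binds the phosphatase PP1α. *Pcdh7* (ENSMUSG00000029108, chromosome 5) was at 116, 119, 110, 115 and 122 CPM in control replicates 1 to 5 and at 136, 137, 138, 147 and 139 CPM in *WD1* cKO replicates 1 to 5. Every control library was below every *WD1* cKO library, and *WD1* cKO replicate 4 was the highest. By the fitted fold change the *WD1* cKO level was 19.8% higher. Within replicate numbers 1 to 3 the log2 ratio of the group means was 0.25, and within numbers 4 and 5 it was 0.27. Libraries with low *Xist* were at 110 to 116 CPM in control and at 137 CPM in *WD1* cKO, and those with high *Xist* at 119 to 122 CPM and 136 to 147 CPM. Only 1 *WD1* cKO library had low *Xist*. With *Xist* as a covariate the log2 fold change was 0.24. The non-coding gene 4932441J04Rik overlaps *Pcdh7* on the opposite strand and had 37 to 54 counts per library, against at least 2333 for *Pcdh7*.

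*Pcdh11x* (ENSMUSG00000034755), whose product is expressed mainly in the nervous system, was at 14.3, 17.7, 15.0, 18.47 and 18.4 CPM in control replicates 1 to 5 and at 19.6, 21.3, 20.7, 22.7 and 26.6 CPM in *WD1* cKO replicates 1 to 5. The groups did not overlap, but the highest control and the lowest *WD1* cKO library were close, and *WD1* cKO replicate 5 stood above the rest. The log2 fold change was 0.40 (standard error 0.096) and fell to 0.32 without *WD1* cKO replicate 5. Among libraries with high *Xist*, the 2 controls were at 17.7 and 18.4 CPM and the 4 *WD1* cKO libraries at 19.6 to 26.6 CPM. Among those with low *Xist*, the 3 controls were at 14.3 to 18.47 CPM and the single *WD1* cKO library at 21.3 CPM. With the level of *Xist* as a covariate, the log2 fold change of *Pcdh11x* was 0.35 and the gene no longer passed the study's cut-off. Within replicate numbers 1 to 3 and within 4 and 5 the log2 ratio was 0.39 and 0.42.

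*Pcdh9*, the delta-1 gene nearest to *Dach1* on chromosome 14, was at 92.3, 93.1, 98.7, 106 and 98.4 CPM in control replicates 1 to 5 and at 99.6, 101, 98.2, 108 and 113 CPM in *WD1* cKO replicates 1 to 5. The groups overlapped, with 2 *WD1* cKO libraries above every control. The log2 fold change was 0.091 (95% confidence interval -0.017 to 0.20; edgeR quasi-likelihood, Benjamini-Hochberg adjusted p = 1.00), so an increase of up to 14.8% lies within the interval. *Pcdh1*, known from epithelia as well as neurons, was at 219, 222, 291, 291 and 276 CPM in control and at 248, 269, 226, 259 and 235 CPM in *WD1* cKO replicates 1 to 5. All *WD1* cKO libraries fell inside the range of the controls, of which replicates 1 and 2 were low and replicates 3, 4 and 5 high. Its log2 fold change was -0.073 (95% confidence interval -0.26 to 0.12; edgeR adjusted p = 1.00).

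Promoter sequences were read from RefSeq for the genes with an entry, which were 8 of the 10, all but *Pcdh1* and *Pcdh11x*. Each window holds the 250 bases before the transcription start, in GRCm38.p6. Those of *Pcdh7*, which the study picked, of *Pcdh8*, which alone holds a TATA box, and of *Pcdh17* and *Pcdh19* are shown as examples. *Pcdh17* and *Pcdh19* hold the same kinds of motif as each other and as *Pcdh10* and *Pcdh18*, which are not shown. Each window shown ends at the base before the start. In the order shown, these windows lie at chr5:57717831-57718080 (plus strand), chr14:79771313-79771562 (minus strand), chr14:84443313-84443562 (plus strand) and chrX:133688994-133689243 (minus strand). Capitals mark TATAAA (the TATA box), CCAAT (the CCAAT box), GGGCGG (the GC box) and CACGTG (an E-box), searched on both strands, and any run of at least 20 bases of A and G alone or of C and T alone.
*Pcdh7* promoter: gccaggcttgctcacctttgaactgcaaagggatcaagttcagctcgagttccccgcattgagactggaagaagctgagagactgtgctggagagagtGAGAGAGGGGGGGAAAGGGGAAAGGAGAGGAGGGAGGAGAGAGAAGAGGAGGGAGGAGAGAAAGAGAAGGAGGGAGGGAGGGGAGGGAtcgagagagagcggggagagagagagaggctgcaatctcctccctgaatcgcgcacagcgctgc
*Pcdh8* promoter: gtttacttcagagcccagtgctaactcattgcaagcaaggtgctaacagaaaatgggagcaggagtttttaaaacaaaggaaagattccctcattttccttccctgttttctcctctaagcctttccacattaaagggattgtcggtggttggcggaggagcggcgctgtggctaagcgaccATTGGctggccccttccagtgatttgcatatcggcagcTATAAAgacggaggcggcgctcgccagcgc
*Pcdh17* promoter: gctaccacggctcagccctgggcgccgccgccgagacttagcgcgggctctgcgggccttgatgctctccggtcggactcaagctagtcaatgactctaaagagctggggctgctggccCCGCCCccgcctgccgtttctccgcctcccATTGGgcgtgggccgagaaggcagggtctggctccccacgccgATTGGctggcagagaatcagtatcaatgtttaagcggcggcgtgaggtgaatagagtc
*Pcdh19* promoter: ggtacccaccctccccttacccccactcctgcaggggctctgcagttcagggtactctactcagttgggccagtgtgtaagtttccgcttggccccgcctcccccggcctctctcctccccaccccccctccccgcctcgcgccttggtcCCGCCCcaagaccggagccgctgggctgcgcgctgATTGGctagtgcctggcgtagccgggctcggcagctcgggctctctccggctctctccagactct
The letters CCAAT were found in 7 of the 8 genes, all but *Pcdh7*, and in 33.8% of the 32851 promoters of the table. GGGCGG was found in 4 of the 8 (*Pcdh10*, *Pcdh17*, *Pcdh18* and *Pcdh19*) and in 32.7% of all promoters. The windows of these 4 genes held 63.2% to 69.2% G and C, against a median of 52.4% over all promoters. The shares over all promoters are not matched for base composition. TATAAA was found only in *Pcdh8*, beginning 30 bases before the start, and in 12.4% of all promoters, and CACGTG in 0 of the 8 and in 6.02% of all. After the windows had been read, the longer stretch ATTGGCTGG, which contains CCAAT on the other strand, was searched on both strands and found in *Pcdh8*, *Pcdh17* and *Pcdh18*, and in 0.959% of all promoters. The window of *Pcdh7* held none of these letters and a run of 88 bases of A and G alone. Only 0.0609% of all promoters hold a run of A and G, or of C and T, at least as long, and the median longest run was 11 bases, a measure chosen after the sequence was seen. The motifs searched and the windows shown were chosen after the values of the genes had been seen, and these matches are descriptions of the letters in the windows.

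Among the delta-2 genes, *Pcdh19* lies on chromosome X and encodes a protein that acts together with N-cadherin. *Pcdh19* (ENSMUSG00000051323) was at 34.6, 37.0, 27.0, 26.9 and 31.1 CPM in control replicates 1 to 5 and at 37.0, 38.1, 36.6, 34.2 and 37.9 CPM in *WD1* cKO replicates 1 to 5. The *WD1* cKO libraries lay close together, 2 of them above every control, while the controls were spread and replicates 3 and 4 were low. On the log2 scale the difference was 0.23, with a standard error of 0.084 (edgeR quasi-likelihood, Benjamini-Hochberg adjusted p = 1.00). With replicate number as a block it was 0.24 (edgeR quasi-likelihood, Benjamini-Hochberg adjusted p = 0.432). In that fit *Pcdh19* passed the study's cut-off, which it did not in the main fit. A two-sided exact permutation test of mean log2 CPM gave p = 0.0556, where 5 embryos against 5 allow 0.00794 as the smallest. Both low controls had low *Xist*, but control replicate 1 had low *Xist* as well and was at 34.6 CPM. *WD1* cKO replicate 2, with low *Xist*, had the highest level of all at 38.1 CPM. With *Xist* as a covariate the log2 fold change was 0.20, and the part of embryo sex in this difference was not tested further.

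*Pcdh8*, also known as arcadlin, is induced by neuronal activity in the brain and promotes the uptake of N-cadherin from the membrane. *Pcdh8* (ENSMUSG00000036422, chromosome 14) was at 3.51, 5.16, 6.54, 3.31 and 3.52 CPM in control replicates 1 to 5 and at 3.71, 3.57, 3.11, 2.79 and 3.81 CPM in *WD1* cKO replicates 1 to 5. Control replicates 2 and 3 were high, and the other 3 controls lay among the *WD1* cKO libraries. The log2 fold change was -0.37 (95% confidence interval -0.78 to 0.045; edgeR quasi-likelihood, Benjamini-Hochberg adjusted p = 1.00; exact permutation test, two-sided, p = 0.198). Without control replicate 3 it was -0.18. That library was also the one with spinal cord transcripts, whose 5 markers (*Olig1*, *Olig2*, *Slc6a5*, *Pax2* and *Sox1*) summed to 0.341, 0.441, 12.1, 0.0736 and 0.528 CPM in control replicates 1 to 5 and to 1.06 CPM or less in *WD1* cKO libraries. *Slc6a5* was the most abundant of these, and none of the 5 passed the filter on low counts. Connective tissue markers were also highest among the controls in that library, at 5840 CPM in sum. In control replicate 2, with *Pcdh8* at 5.16 CPM, spinal cord markers summed to 0.441 CPM and connective tissue markers to 4390 CPM. The part of these tissues in the level of *Pcdh8* was not tested.

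Within the delta-2 class, *Pcdh10*, *Pcdh17* and *Pcdh18* had the smallest log2 fold changes. *Pcdh10*, whose product recruits the WAVE complex through its tail, was at 102, 110, 111, 117 and 113 CPM in control and at 115, 119, 118, 106 and 120 CPM in *WD1* cKO replicates 1 to 5. The groups overlapped although 3 *WD1* cKO libraries exceeded every control, and the log2 fold change was 0.067 (95% confidence interval -0.029 to 0.16). *Pcdh17*, which brings the WAVE complex to contacts between axons, was at 78.8 to 95.6 CPM in control libraries and at 81.7 to 94.3 CPM in *WD1* cKO libraries. All *WD1* cKO libraries fell inside the range of the controls. The antisense gene 9630013A20Rik overlaps *Pcdh17* and had 197 to 321 counts per library against 1615 to 3267 for *Pcdh17*. As the strand setting of the counting is not given in the sources used here, reads where these genes overlap are uncertain. *Pcdh18*, whose tail binds the adaptor Dab1, was at 20.6 ± 1.31 CPM in control and 20.7 ± 1.54 CPM in *WD1* cKO libraries (SD, n = 5), with a 95% confidence interval of -0.13 to 0.15 for its log2 fold change. For each of these 3 genes the adjusted p-value was 1.00 (edgeR quasi-likelihood, Benjamini-Hochberg).

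*Pcdh20*, which is outside both classes, was at 0.397 to 1.14 CPM in control libraries and at 0.494 to 1.13 CPM in *WD1* cKO libraries. Replicate 5 was the highest in both groups, and the ranges almost coincided. The 95% confidence interval of its log2 fold change was -0.65 to 0.76 (edgeR adjusted p = 1.00).

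**Figure D3:**
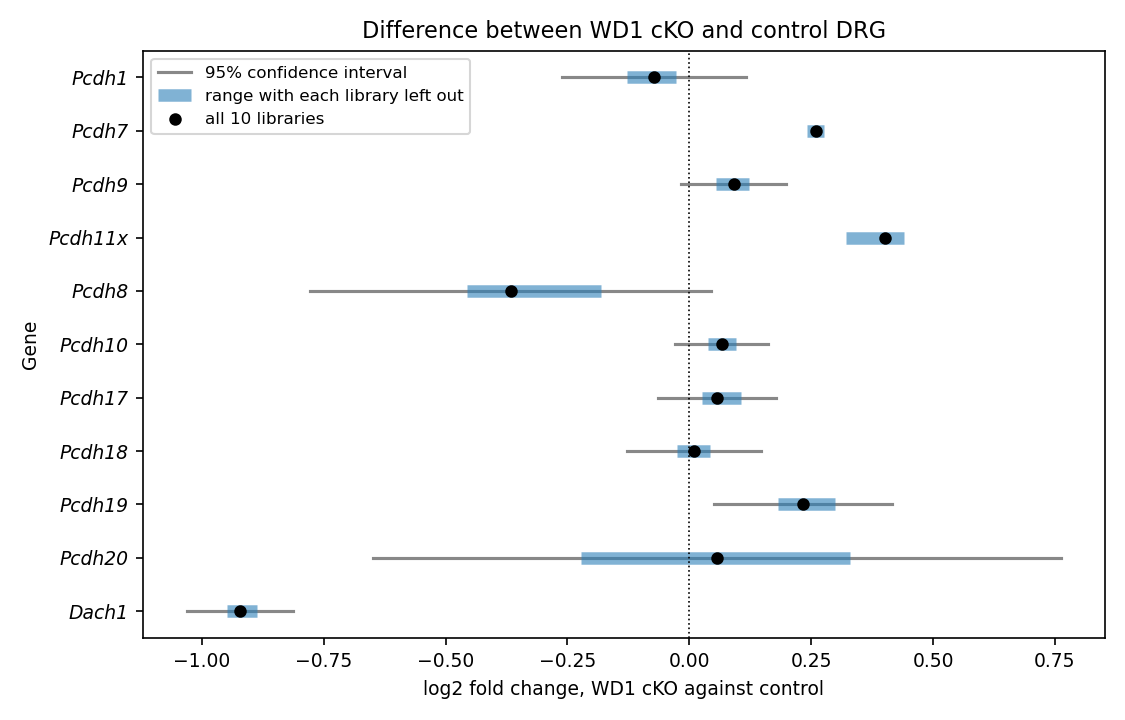
Log2 fold change of each gene in *WD1* cKO against control embryos (point), with the 95% confidence interval of the edgeR fit (grey line, not drawn for *Pcdh7* and *Pcdh11x*) and the range over the fits that each leave out 1 library (blue bar). Intervals are not adjusted over genes. That of *Pcdh8* reaches from -0.78 to 0.045 and that of *Pcdh20* from -0.65 to 0.76, and the blue bars of *Pcdh18* and *Pcdh20* lie on both sides of 0.

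Seen by library, *WD1* cKO replicate 5 had the highest level of all for *Pcdh9*, *Pcdh10* and *Pcdh11x*, and within its group also for *Pcdh8*, *Pcdh17* and *Pcdh20*, so that it led the *WD1* cKO libraries in 6 of the 10 genes. Replicate 4 of that group led in *Pcdh7*, replicate 3 in *Pcdh18*, and replicate 2 in *Pcdh1* and *Pcdh19*. Among controls, replicate 4 led in 5 genes. The summed level of the 4 delta-1 genes was 491 ± 40.8 CPM (SD, n = 5) in control and 513 ± 21.2 CPM (SD, n = 5) in *WD1* cKO libraries, a sum in which *Pcdh1* weighs most. For the 5 delta-2 genes it was 251 ± 8.84 CPM (SD, n = 5) and 264 ± 9.55 CPM (SD, n = 5). In both classes the groups overlapped. Between the sets of replicate numbers, the sign of the log2 ratio of *WD1* cKO to control differed for 4 of the 10 genes. These were *Pcdh1* (0.020 in numbers 1 to 3, -0.20 in 4 and 5), *Pcdh10* (0.13 and -0.021), *Pcdh18* (0.034 and -0.034) and *Pcdh20* (-0.17 and 0.21). For *Pcdh8* it was -0.55 and -0.049.

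**Figure D4:**
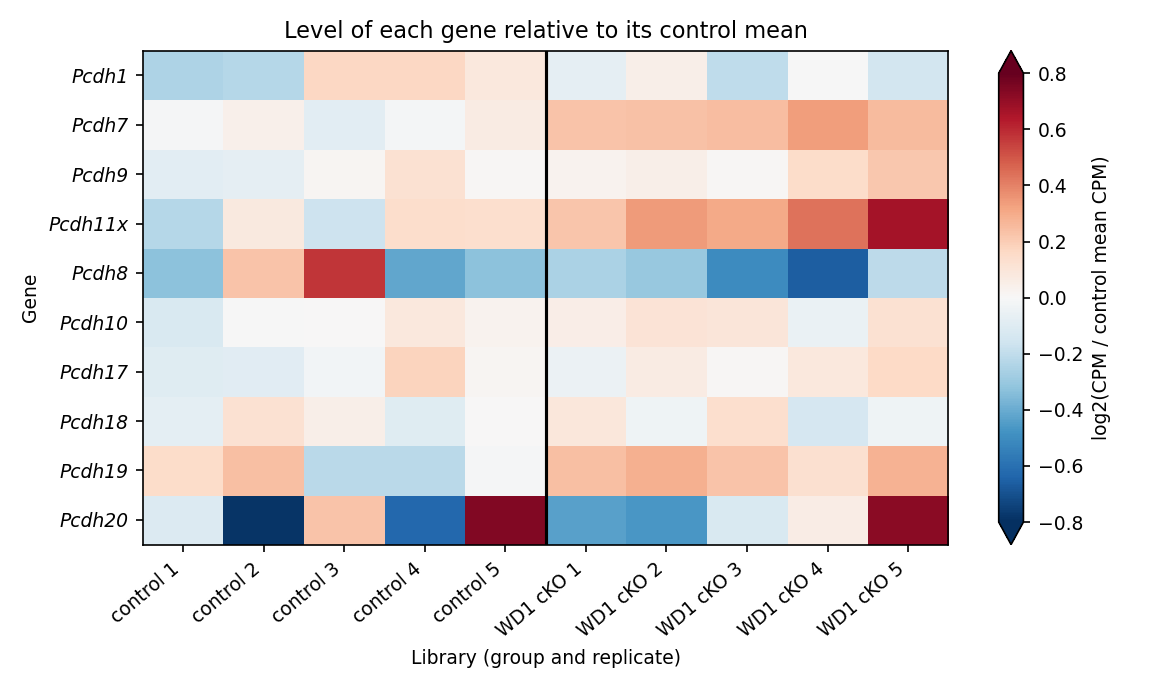
Level of each gene (rows) in every library (columns) as the log2 ratio to the mean of its control libraries, red above and blue below that mean. *Pcdh7*, *Pcdh9*, *Pcdh11x* and *Pcdh19* are above that mean in all 5 *WD1* cKO libraries, *Pcdh8* is high in control replicates 2 and 3, and *Pcdh20* varies most.

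Of the 10 genes, 4 lie on chromosome 14 with *Dach1*, in the order *Pcdh8*, *Pcdh17*, *Pcdh20*, *Pcdh9* and *Dach1* in GENCODE M21. Between *Pcdh9* and *Dach1* this annotation holds 2 protein-coding genes, and between *Pcdh20* and *Pcdh9* it holds 0. The log2 fold changes of these 4 genes ran from -0.37 for *Pcdh8* to 0.091 for *Pcdh9*. *Pcdh10* and *Pcdh18* lie on chromosome 3 with 1 protein-coding gene between them, with log2 fold changes of 0.067 and 0.0098. The gene spans differ widely, from 4.54 kb for *Pcdh8*, whose exons over all transcripts cover nearly the whole gene, to 620 kb for *Pcdh11x* and 877 kb for *Pcdh9*.

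Genes whose log2 CPM followed *Pcdh7* most closely over the 10 libraries were *Fst* (Pearson r = 0.965, Spearman rho = 0.891), *Fermt2* (r = 0.954, rho = 0.939) and *Ttc9c* (r = 0.939, rho = 0.903). *Fst*, which encodes the activin antagonist follistatin, had a log2 fold change of 0.55, *Fermt2* of 0.10 and *Ttc9c* of 0.086. For *Pcdh11x* they were *Alg14* (r = 0.949, rho = 0.927), *Glo1* (r = 0.945, rho = 0.952) and *Uba6* (r = 0.939, rho = 0.927), with log2 fold changes of 0.18, 0.11 and 0.13. These are the highest values among all genes tested, over libraries that share the contrast of genotypes, and are given without a test.

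Genes listed as encoding partners of protocadherins were compared in the same fit. Of the 9 genes of the WAVE complex, which drives actin branching, 7 had a negative and 2 a positive log2 fold change, from -0.061 for *Wasf3* to 0.040 for *Nckap1*, and *Cyfip2* was the most abundant at 422 CPM. Of 9 other partners, among them *Ppp1ca* and *Set* for Pcdh7, *Taok2* and *Cdh2* for Pcdh8 and *Dab1* for Pcdh18, 5 were negative and 4 positive, from -0.062 for *Taok2* to 0.075 for *Dab1*, and *Ctnnb1* was the most abundant at 584 CPM. *Taf1*, which is on this list, shares its name with a template-activating factor encoded by *Set* and is not itself known as such a partner. In neither list was a p-value under 0.05 by edgeR or DESeq2, adjusted or not. Their medians were -0.042 and -0.021.

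Related cadherins were compared in the same way. Of 11 other non-clustered and giant cadherins (*Pcdh12*, *Pcdh15*, *Dchs1*, *Dchs2*, *Fat1* to *Fat4* and *Celsr1* to *Celsr3*), 0 passed an adjusted p of 0.05 by edgeR or DESeq2. Without adjustment 2 passed it by both tools, *Pcdh15* and *Celsr3* (log2 fold change -0.082), against 3.48% of all genes tested. Over the 11 genes log2 fold changes ran from -0.27 for *Pcdh15* to 0.43 for *Fat2*, a gene at 2.90 CPM in control libraries. Their median was -0.020, and *Celsr3* was the most abundant at 234 CPM. The clustered protocadherins, whose alpha and gamma members join variable exons to shared ones, had 57 genes, of which 54 were tested. Of these, 29 were positive and 25 negative, with a median of 0.0052, from -0.33 for *Pcdhgc5* to 0.35 for *Pcdhb2*. Here 0 passed an adjusted p of 0.05 by either tool, while without adjustment 2 did by edgeR and 1 by DESeq2, against 4.5% and 3.68% of all genes. *Pcdhac2* was the most abundant at 84.8 CPM, and *Pcdhga10* was at 0 counts in every library. Reads from the shared exons and between near-identical members make the single clustered genes uncertain.

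Cell type markers were examined because the protocadherins are expressed in several cells of the ganglion. The medians of log2 fold changes were -0.019 for 7 genes of sensory neurons (*Isl1* -0.12, *Snap25* 0.065), -0.068 for 7 of nociceptors (highest *Tac1*, 0.19) and 0.023 for 7 of Schwann cells and satellite glia (*Cdh19* -0.028, *Erbb3* 0.092). *Scn10a* and *Mbp* were the most abundant of the nociceptor and glial genes. For 9 genes of A-LTMR and proprioceptor neurons, the low-threshold touch and position sensors, the median was 0.083, from -2.06 for *Calb2* to 0.34 for *Mafa*, with *Ret* as the most abundant. *Calb2* and *Shox2* (0.30) passed the study's cut-off and had been picked by the study from these libraries. The medians were 0.095 for 6 genes of connective tissue (*Dcn* 0.040, *Lum* 0.22, most abundant *Col3a1*, all 6 positive), 0.041 for 8 of endothelial and mural cells (*Cdh5*, also the most abundant, -0.014, *Flt1* 0.16) and -0.056 for 4 of macrophages (*C1qb* -0.15, *Cx3cr1* 0.097, most abundant *Csf1r*). The connective tissue genes summed to 4630 to 5440 CPM in *WD1* cKO libraries, above 4 of the 5 controls (4190 to 4530 CPM), with control replicate 3 above all at 5840 CPM. The part of this tissue in the levels of the protocadherins was not tested. Apart from *Calb2*, 0 genes of these lists passed an adjusted p of 0.05 by edgeR or DESeq2. Without adjustment, and leaving the nociceptor list aside, 4 genes of the A-LTMR and proprioceptor list and 1 gene of the connective tissue list passed it by both tools, against 3.48% of all genes. The former were *Calb2* and *Ntrk2* (-0.18) with negative and *Mafa* and *Shox2* with positive values, and include genes that the study picked. The latter was *Lum*.

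Blood and muscle transcripts varied from library to library. The 4 erythroid genes, of which *Hba-a1* was the most abundant, summed to 1060, 773, 390, 58.9 and 67.4 CPM in control replicates 1 to 5 and to 397, 263, 189, 80.2 and 64.9 CPM in *WD1* cKO replicates 1 to 5. They were high in replicates 1 to 3 and low in replicates 4 and 5 of both groups, and their median log2 fold change was -1, with *Hba-a1* lowest at -1.57. The 5 muscle genes, led by *Acta1*, summed to 20.1 to 130 CPM in control libraries and to 37.6 to 77.3 CPM in *WD1* cKO libraries, with log2 fold changes from -0.79 for *Ckm* to 0.12 for *Myog* and a median of -0.49. In both lists no p-value was under 0.05 by edgeR or DESeq2, adjusted or not. The part of these tissues in the levels of the protocadherins was not tested.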

How the data were processed

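Bulk RNA of 5 control and 5 *WD1* cKO DRG samples at E18.5 was sequenced from Illumina stranded mRNA libraries. The authors demultiplexed reads with bcl2fastq 2.20.0.422, aligned them with STAR 2.7.8a to GRCm39 and assigned them to genes with featureCounts 2.0.1. The deposited counts are not normalized. The study describes the controls as littermates of the *WD1* cKO embryos. The handling of reads with several matches and which embryos share a litter are not given in the sources used here. Symbols were matched to 52081 of 55414 Ensembl identifiers.

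The fit was made with edgeR 4.0.16 in R 4.3.3 on genes that reached 10 counts in 5 or more libraries, after TMM scaling. Genotypes were compared by the quasi-likelihood test without covariate, and p-values were adjusted by Benjamini-Hochberg. Confidence intervals (95%) came from the same fit. Exact permutation tests (two-sided) used log2 CPM averaged by group, a prior count of 1 being added. The test was tested on simulated data. These had the same dispersion for every gene and no difference by sex or replicate number, so they cannot show how the test handles such differences. Alternatives were DESeq2 1.42.0 (Wald test, or its size factors), no filter, a mean count of at least 100, robust dispersion, a replicate block, *Xist* or the set of replicate numbers as a term, CPM from total counts, and each library left out.

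Each library was counted as 1 replicate. The chi-square of 2 libraries of a group was 4.33 to 15.7 times its degrees of freedom, beyond counting noise, which does not by itself show that they are independent. The study gives n as 5 embryos in each group.

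The members and gene lists were chosen with earlier results of these data known. Named are the 10 members, *Dach1*, the genes of each list that passed an adjusted p of 0.05 or the study's cut-off, its highest, lowest and most abundant gene (1 gene each of the nociceptor and erythroid lists is not reported here) and those at 0, the 3 genes most like *Pcdh7* and *Pcdh11x*, *Xist* and 4 Y-linked genes. Partners named with their protocadherin, overlapping genes and other list genes given by name were added for description. No protein sequences were used here.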

Additional observations from a re-analysis of the deposited data

Results flagged for a closer look

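Of 42 groups of 5 libraries compared for the protocadherins, *Dach1* and the marker sums, 4 held a library far from the others, where chance gives about 1 in 20. *Pcdh7* was at 147 CPM in *WD1* cKO replicate 4, with the other *WD1* cKO libraries at 136 to 139 CPM, and its log2 fold change was 0.24 without that library. Connective tissue markers summed to 5840 CPM in control replicate 3, with the other controls at 4190 to 4530 CPM and all *WD1* cKO libraries at 4630 to 5440 CPM. Spinal cord markers summed to 12.1 CPM in the same library, with the other controls at 0.528 CPM or less. Muscle markers summed to 77.3 CPM in *WD1* cKO replicate 3, with the other *WD1* cKO libraries at 37.6 to 45.5 CPM.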

How the results depend on the processing

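The direction of 8 of the 10 protocadherins was the same in every alternative run. The exceptions were *Pcdh18*, with a log2 fold change of -0.0245 with *Xist* as a covariate and -0.0245 to 0.0423 with each library left out, and *Pcdh20*, at -0.11 with *Xist* and -0.22 to 0.33 with each library left out. The cause was not tested, and both intervals include 0. *Pcdh8* and *Pcdh20* have no value with a mean count of at least 100.

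Over all genes, 7 passed an adjusted p of 0.05 in edgeR. This became 4 when a mean count of 100 was asked for, 19 under DESeq2, 4 with *Xist*, 11 with a term for replicate numbers 1 to 3 against 4 and 5, and 3 to 6 with each library left out. The number past the study's cut-off, 67, was 128 without a filter and 117 with the term for replicate numbers. Among the protocadherins, the number with an adjusted p-value under 0.05, 1, was 0 with *Xist* and 0 to 1 with each library left out. It was 0 without control replicate 1, 2 or 4 or *WD1* cKO replicate 2, 3, 4 or 5. The number past the study's cut-off, 2, was 1 with *Xist*, where *Pcdh11x* was lost, and 3 without a filter and without control replicate 2, where *Pcdh19* was added. The causes were not tested.

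Same-numbered libraries deviated together with correlations of 0.329, 0.0404, 0.32, 0.354 and 0.39 for numbers 1 to 5, and as number 2 did not exceed the 0.1 asked of every number, the numbers were not taken as pairs. As a hint from the data, 7 of 10 libraries correlated best with their own number. With a replicate block, 133 genes passed the study's cut-off and 8 had an adjusted p-value under 0.05, while among the protocadherins 3, with *Pcdh19* as the added gene, and 1 did. *Pcdh20* had the lowest counts, 9 to 39 per library.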
